A study of Mus musculus with 2 samples.

Results

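The genes described here are 9 core genes of the Hedgehog pathway, chosen as the rows of the deposited count table whose symbol is Shh, Ihh, Ptch1, Smo, Hhip, Gli1, Gli2, Gli3 or Sufu, out of 27376 gene rows in all. They were measured by RNA sequencing of prostate tumour tissue from mice aged 16 months, with 1 library of the genotype Bcat_Only and 1 of the genotype Met_Bcat. Per the file headers, the Bcat_Only library carries a beta-catenin exon 3 allele and PB Cre, a name used for a Cre recombinase driven by the probasin promoter, which is active in prostate epithelium. The labels name beta-catenin in both genotypes and MET in Met_Bcat alone, and they give neither the MET allele nor the number of animals behind a library. The tissue was not sorted, so each library mixes tumour epithelium with stroma, blood cells and whatever was dissected with them, and in such RNA fewer cells of a type and less RNA per cell cannot be told apart.

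Hedgehog signalling begins with a secreted, lipid-modified ligand, such as Sonic hedgehog (Shh) or Indian hedgehog (Ihh), that binds the receptor Patched (Ptch1). Unbound Patched holds the membrane protein Smoothened (Smo) inactive, and ligand binding frees Smoothened to act, in the primary cilium, on the GLI transcription factors, which Sufu otherwise restrains. Gli2 is the main activator and Gli3 mostly a repressor, whereas Gli1, Ptch1 and the ligand trap Hhip are themselves induced by the pathway and serve as its usual readouts. In the developing prostate, Shh is made by the urogenital epithelium and the response genes are expressed mostly in the surrounding mesenchyme.

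The promoters of Ptch1 and Ihh, whose transcripts were more abundant in the Met_Bcat library, and of Gli2, whose transcript was less abundant, are shown to set side by side the sequence in front of genes whose ratios lay on opposite sides of 1. They are the 250 bases upstream of the RefSeq transcription start on GRCm38.p6, all 3 on the minus strand and written 5′ to 3′ along the gene: chr13:63565736-63565985 for Ptch1, chr1:74951673-74951922 for Ihh and chr1:119053620-119053869 for Gli2. Capitals mark the GC box GGGCGGG, searched on both strands.
Ptch1: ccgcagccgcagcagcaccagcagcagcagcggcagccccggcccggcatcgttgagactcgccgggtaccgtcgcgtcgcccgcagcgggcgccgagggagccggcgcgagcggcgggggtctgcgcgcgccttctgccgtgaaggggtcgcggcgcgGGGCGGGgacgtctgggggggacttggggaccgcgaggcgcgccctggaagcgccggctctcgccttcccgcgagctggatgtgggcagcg
Ihh: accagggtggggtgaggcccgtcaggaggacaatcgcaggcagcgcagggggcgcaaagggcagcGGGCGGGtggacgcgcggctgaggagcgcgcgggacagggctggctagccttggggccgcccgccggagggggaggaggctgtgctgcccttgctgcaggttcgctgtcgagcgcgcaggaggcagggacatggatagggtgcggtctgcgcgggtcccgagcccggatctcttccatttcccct
Gli2: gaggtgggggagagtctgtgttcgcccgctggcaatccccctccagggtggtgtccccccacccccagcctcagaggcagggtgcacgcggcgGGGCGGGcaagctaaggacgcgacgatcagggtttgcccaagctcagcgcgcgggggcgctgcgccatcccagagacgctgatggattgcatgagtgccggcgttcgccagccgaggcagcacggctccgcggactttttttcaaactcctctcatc
The GC box starts 91 bases before the start of Ptch1, 185 before that of Ihh and 157 before that of Gli2. It was found in 6 of the 7 members with a RefSeq window (Smo had none) and in 23.4% of all 32851 windows of this length. The GLI consensus GACCACCCA, searched on both strands and overlapping no GC box by its letters, was found in 0 of the 7 windows and in 0.225% of all windows. The Ptch1 window was 78.4% G and C with 41 CpG dinucleotides, against medians of 52.4% and 6 over all windows. The GC box was thus present both in front of genes with a ratio above 1 and in front of Gli2.

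Levels are given as CPM, the reads of a gene per 1000000 reads of its library after TMM scaling, and differences as the ratio of Met_Bcat to Bcat_Only with a 95% exact interval for counting error. A gene was called higher or lower when its mean was at least 1 CPM and the end of the interval nearest to 1 was at least 2-fold. Each genotype had 1 library, so no test between genotypes was possible, and every difference is one between these 2 libraries. Gene counts summed to 19301062 in Bcat_Only and to 20117724 in Met_Bcat. The members' reads per library ran from 3 to 1933, so the precision differs widely among them.

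Across the 9 genes, the ligands Shh and Ihh and the response genes Ptch1 and Gli1 had more RNA in the Met_Bcat library, Gli2 had less, and the intervals of Smo, Gli3 and Sufu held a ratio of 1. Of the 9 members 8 passed the minimum of 1 CPM, all but Hhip, and 0 were called higher and 0 lower by the 2-fold rule, against 4.42% of all 14354 genes called higher and 14.6% called lower. Of all calls 76.8% were lower, or 87.2% when the libraries were scaled to luminal markers. With the near end of the interval set at 1.5-fold, 3 members were called higher, Shh, Ptch1 and Gli1, and 0 lower, against 8.12% and 19.7% of all genes. The interval lay above 1 for 4 members and below 1 for 1, where 37.8% of all genes lay above and 36.0% below, so an interval that leaves out 1 was common in these libraries. The median log2 ratio of CPM plus 0.5 was 0.28 over the 8 members and 0.030 over all genes, whose quartiles were −0.53 and 0.33.

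**Figure D1:**
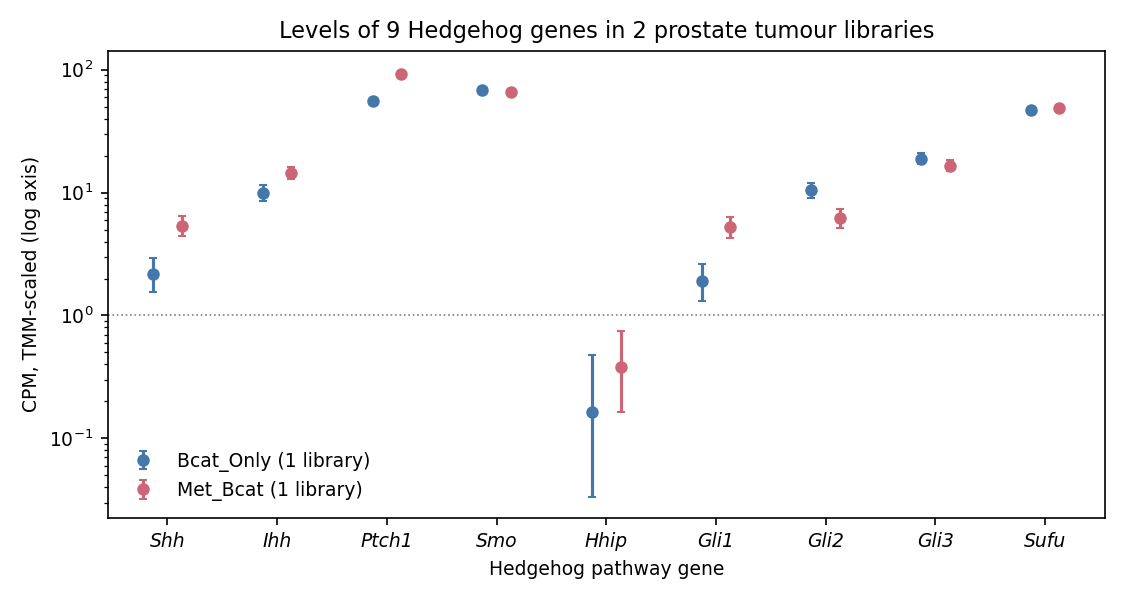
CPM (log axis) of the 9 Hedgehog genes in the Bcat_Only library and the Met_Bcat library, with 1 point per library and bars for the 95% exact Poisson interval of its reads. The Met_Bcat points of Shh, Ptch1 and Gli1 stand clear above those of Bcat_Only, Gli2 stands below, and Hhip lies under the dotted line at 1 CPM in both.

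Both ligands were detected. Shh (ENSMUSG00000002633, mm9 chromosome 5, 28783355 to 28793641) had 40 reads in Bcat_Only, or 2.17 CPM (1.55 to 2.96), and 113 in Met_Bcat, or 5.36 CPM (4.42 to 6.45). The Shh intervals of the libraries did not overlap, and the ratio was 2.47 (1.71 to 3.64). Features that overlap Shh on the opposite strand, 9530036O11Rik and Gm17493, had 15 and 13 reads together. Ihh (ENSMUSG00000006538, chromosome 1, 74991891 to 74998246), a ligand best known from cartilage and gut, had 183 reads or 9.93 CPM (8.55 to 11.5) in Bcat_Only and 304 reads or 14.4 CPM (12.8 to 16.1) in Met_Bcat. Its ratio of 1.45 (1.205 to 1.75) was the smaller of the pair. Per length of exon, Ihh was the more abundant ligand in each library, at 4.03 CPM per kilobase against 0.807 for Shh in Bcat_Only and 5.85 against 1.99 in Met_Bcat. Shh thus made up 16.7% of the length-scaled ligand reads in Bcat_Only and 25.4% in Met_Bcat. As plain reads these shares were 17.9% (exact interval 13.1% to 23.6%) and 27.1% (22.9% to 31.6%), and the odds of a read being Shh rather than Ihh were 1.70 times as high in Met_Bcat (1.12 to 2.62), a comparison that needs no scaling between libraries. Dhh, the ligand known from Schwann and Sertoli cells, had 14 and 5 reads and lay below 1 CPM.

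The receptor Ptch1 and the transducer Smo parted. Ptch1 (ENSMUSG00000021466, chromosome 13, 63610261 to 63674474) had 1029 reads in Bcat_Only, or 55.9 CPM (52.5 to 59.4), and 1933 in Met_Bcat, or 91.7 CPM (87.7 to 95.9). That made a ratio of 1.64 (1.52 to 1.77), and 9.74% of all genes tested had a higher one. Smo (ENSMUSG00000001761, chromosome 6, 29685694 to 29711365) had 1253 and 1376 reads, 68.0 CPM (64.3 to 71.9) and 65.3 CPM (61.9 to 68.8), a ratio of 0.960 (0.889 to 1.04). The overlap of the Smo intervals and the gap between the Ptch1 intervals show in the reads themselves: there were 821 Ptch1 reads per 1000 Smo reads in Bcat_Only and 1405 in Met_Bcat, 1.71 times as many (1.53 to 1.91). Hhip (ENSMUSG00000064325, chromosome 8, 82490014 to 82581905), which binds the ligands at the cell surface, had 3 and 8 reads, which gives a ratio of 2.33 whose interval ran from 0.559 to 13.6. A difference in Hhip was therefore not detectable at this depth.

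Among the GLI factors the balance differed between the libraries. Gli1 (ENSMUSG00000025407, chromosome 10, 126766945 to 126778645) had 35 reads in Bcat_Only, or 1.90 CPM (1.32 to 2.64), and 110 in Met_Bcat, or 5.22 CPM (4.29 to 6.29). These do not overlap, and the ratio of 2.75 (1.86 to 4.14) was the highest of the 9 genes, with 3.93% of all genes tested above it. With total counts as the scaling it became 3.02 (2.04 to 4.55) and passed the 2-fold rule. The gene Arhgap9 overlaps Gli1 on the opposite strand and had 417 and 97 reads, the opposite direction, and reads of the shared stretch cannot be told apart because the strand setting of the counting is not given in the sources used here. Gli2 (ENSMUSG00000048402, chromosome 1, 120730709 to 120950196) had 192 reads in Bcat_Only, or 10.4 CPM (8.999 to 12.0), and 131 in Met_Bcat, or 6.22 CPM (5.20 to 7.38), again without overlap. It was the single member with an interval below 1, at 1.68-fold lower (1.34 to 2.11), and 21.6% of all genes tested had a lower ratio. Gli3 (ENSMUSG00000021318, chromosome 13, 15555068 to 15821859) had 349 and 350 reads, 18.9 CPM (17.0 to 21.0) and 16.6 CPM (14.9 to 18.4), a ratio of 0.877 (0.754 to 1.02). Sufu (ENSMUSG00000025231, chromosome 19, 46471386 to 46563294) had 863 and 1021 reads, 46.8 CPM (43.8 to 50.1) and 48.4 CPM (45.5 to 51.5), a ratio of 1.03 (0.944 to 1.13). For Gli3 and Sufu the libraries' intervals overlapped.

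Within each library, the make-up of the GLI family can be read without any scaling between libraries. Per length, Gli1 held 12.6% of the GLI reads in Bcat_Only and 34.4% in Met_Bcat, Gli2 held 38.0% and 22.5%, and Gli3 held 49.4% and 43.1%. The odds of a Gli1 read against a Gli3 read were 3.13 times as high in Met_Bcat (2.06 to 4.86), and against a Gli2 read 4.61 times (2.91 to 7.37). In plain reads Gli1 held 6.08% (4.27% to 8.35%) and 18.6% (15.6% to 22.0%) of the family, and Gli2 33.3% (29.5% to 37.3%) and 22.2% (18.9% to 25.7%). On both scales Gli3 had the largest share of the 3 in both libraries, though its interval per length overlapped that of Gli1 in Met_Bcat. Gli1 had the lowest share in Bcat_Only on both scales, and in Met_Bcat it stood above Gli2 per length and below it in plain reads.

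**Figure D2:**
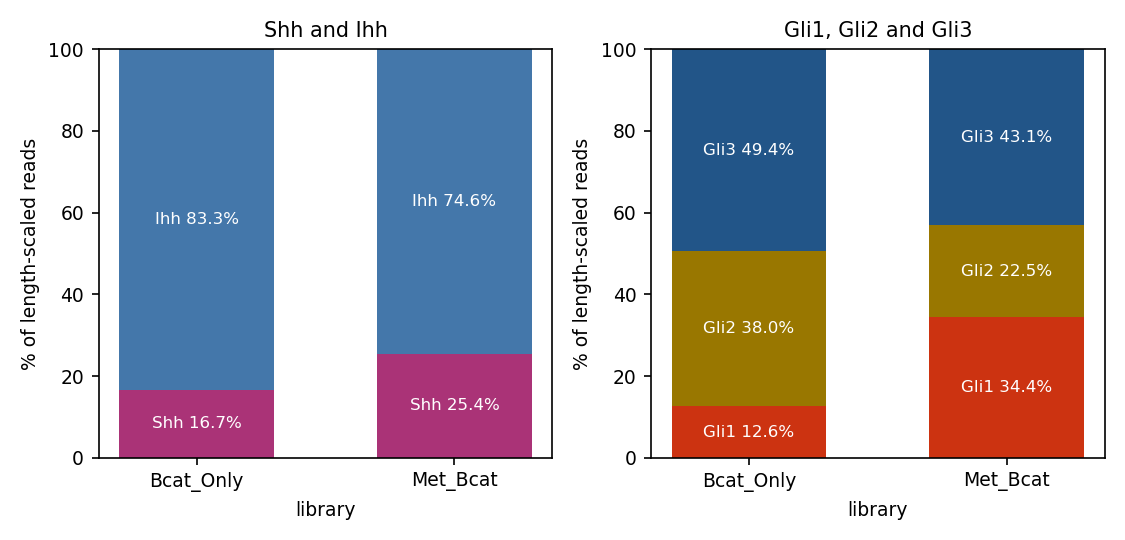
Stacked bars of the share of length-scaled reads (percent, y axis) held by Shh and Ihh (left) and by Gli1, Gli2 and Gli3 (right) in each library. Shh goes from 16.7% to 25.4% of the ligand reads and Gli1 from 12.6% to 34.4% of the GLI reads, while Gli2 goes from 38.0% to 22.5%.

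Ordered by CPM per kilobase, Smo was the highest of the 9 genes in both libraries, at 17.997 in Bcat_Only and 17.3 in Met_Bcat, followed by Ptch1 at 8.49 and 13.9, Sufu at 6.74 and 6.98 and Ihh. In Bcat_Only the order went on with Gli3 (1.98), Gli2 (1.52), Shh (0.807), Gli1 (0.502) and Hhip (0.033), and the intervals of the neighbours Shh and Gli1 overlapped. In Met_Bcat it went on with Shh (1.99), Gli3 (1.73), Gli1 (1.38), Gli2 (0.905) and Hhip (0.078), where Shh overlapped Gli3 and Gli3 overlapped Gli1. The intervals of all other neighbours did not overlap. The change of order lay below Ihh: Shh and Gli1 stood above Gli2 in Met_Bcat and below it in Bcat_Only.

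How far the ratios depend on the scaling was examined next, because a small ratio can change sign with it. Against TMM, log2 ratios were 0.13 higher throughout with total counts, and they shifted by −0.39 when the median of 12 luminal epithelial markers set the scale. The intervals of Shh, Ptch1 and Gli1 lay above 1 under all 5 scalings run, and that of Gli2 lay below 1 under all 5. Under luminal scaling Gli1 had a ratio of 2.10 (1.42 to 3.16), Shh 1.89 (1.30 to 2.78), Ptch1 1.25 (1.16 to 1.35) and Gli2 was 2.20-fold lower (1.75 to 2.76). Ihh was above 1 in 4 of 5 and held 1 under luminal scaling, at 1.11 (0.920 to 1.34). Smo changed side, with ratios from 0.733 (luminal, 0.679 to 0.792) to 1.05 (total counts, 0.975 to 1.14). Sufu did too, from 0.790 (0.721 to 0.866) to 1.14 (1.04 to 1.24), with intervals on either side of 1. The ratio of Gli3 stayed below 1, from 0.670 to 0.962, with an interval below 1 under luminal scaling alone (0.576 to 0.779).

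**Figure D3:**
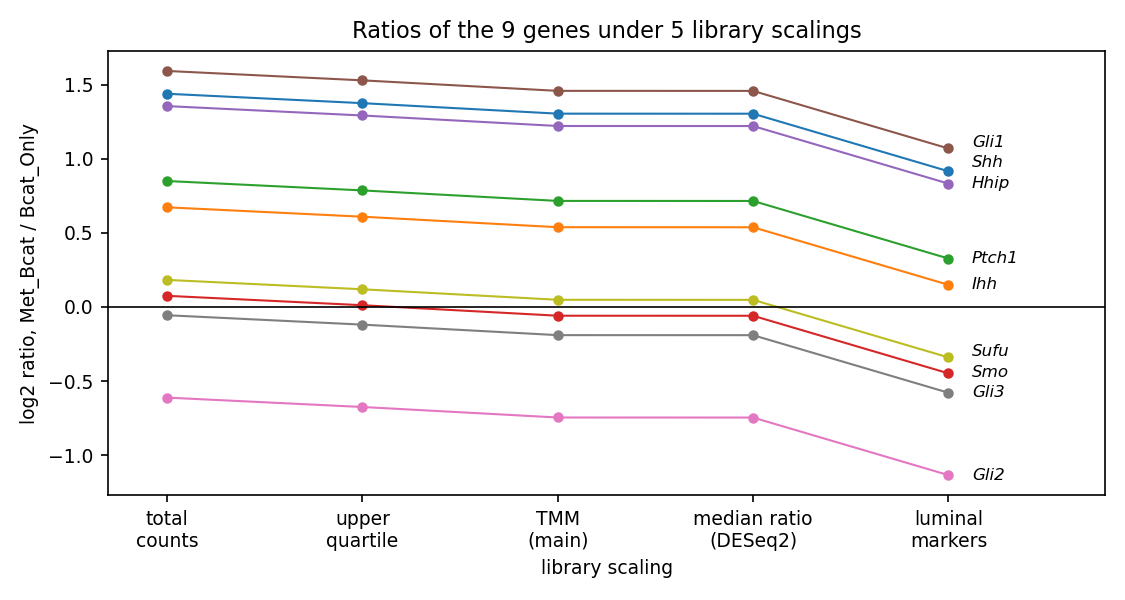
log2 ratio of Met_Bcat to Bcat_Only (y axis) for each of the 9 genes under 5 library scalings (x axis), with 1 line per gene. The lines are parallel, since a scaling shifts all genes alike: Gli1, Shh, Hhip, Ptch1 and Ihh stay above 0, Gli2 and Gli3 stay below, and Smo and Sufu cross. Intervals are not drawn, and that of Hhip, with 3 and 8 reads, held a ratio of 1 under all 5 scalings.

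Markers of stroma differed between the libraries by more than any of the 8 measured Hedgehog genes did, in the median of their lists. Of 12 fibroblast and matrix markers 10 were lower in Met_Bcat and 0 higher, with a median log2 ratio of −3.21 and a summed level of 24876 CPM in Bcat_Only and 1212 CPM in Met_Bcat. Col3a1, a fibrillar collagen, was 65.8-fold lower (63.6 to 68.1) and Dcn, the proteoglycan decorin, 7.70-fold (7.45 to 7.96). Of 10 smooth muscle markers 9 were lower and 0 higher, with a median of −3.38 and sums of 624 and 68.5 CPM, and Acta2, smooth muscle actin, was 9.23-fold lower (8.43 to 10.1). Set against the summed fibroblast and matrix reads of the same library, Gli1 was 56.4 times as abundant in Met_Bcat as in Bcat_Only (38.2 to 85.1), Shh 50.7 times (35.1 to 74.7), Ptch1 33.7 times (31.2 to 36.4) and Gli2 12.2 times (9.73 to 15.4). In this sum the abundant collagens weigh most, with Col1a1 at 6130 CPM and Col3a1 at 10493 CPM in Bcat_Only. Other markers of the list were less low, Pdgfra at 3.29-fold lower (3.10 to 3.48) and Pdgfrb at 2.11-fold (1.98 to 2.25). Because the sum was lower by more than any member was, the ratio of each member to it had to lie above 1. That holds for Gli2 too, whose own level was lower. The part of a changed cell make-up in the Hedgehog ratios was not tested.

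Epithelial markers lay on the other side. Luminal markers had a median log2 ratio of 0.39, with 4 of 12 higher and 1 lower and sums of 3836 and 6289 CPM. Krt19, a simple epithelial keratin, was 2.15-fold higher (2.10 to 2.20), and Krt18 and Cdh1, E-cadherin, had ratios of 1.27 and 0.836. Basal markers had a median of 0.88, with 4 of 10 higher and 1 lower and sums of 1281 and 2484 CPM. The basal keratin Krt5 was 4.85-fold higher (4.67 to 5.05). The 1 lower gene was Krt15, also a basal keratin, at 10.9-fold lower (9.48 to 12.5). Against the summed luminal reads of each library, in which abundant genes weigh most, the ratio of Shh was 1.51 (1.04 to 2.22) and that of Gli1 1.68 (1.14 to 2.53), both above 1, while those of Ptch1 (1.002, 0.928 to 1.08) and Ihh (0.886, 0.735 to 1.07) held 1. Against the summed basal reads, the intervals of Shh (1.27, 0.881 to 1.88) and Gli1 (1.42, 0.960 to 2.14) held 1, while Ptch1 was at 0.847 (0.784 to 0.916) and Ihh at 0.749 (0.621 to 0.905). Gli2 was below 1 against both sums, at 0.364 (0.289 to 0.457) to luminal and 0.308 (0.244 to 0.386) to basal. So were Smo, at 0.586 and 0.495, Gli3, at 0.535 and 0.452, and Sufu, at 0.631 and 0.533. Both sums were higher in Met_Bcat, so a member whose own level did not differ had to lie below 1 against them. That holds for Smo, Gli3 and Sufu, whose own intervals held a ratio of 1.

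Markers of other cell types differed as well. All 8 neutrophil markers and all 8 macrophage markers were lower in Met_Bcat, with medians of −5.37 and −2.48 and sums of 7131 against 775 CPM and 2981 against 482 CPM, and 5 of 8 endothelial markers were lower (2 with total counts), with a median of −1.15. Of 6 measured seminal vesicle secretory genes, 6 were lower, with sums of 6869 and 4.74 CPM, and Svs3a and Svs6 were at 0 in Met_Bcat, as was Svs1, whose mean over the libraries lay below 1 CPM. Squamous markers had a median of 1.92, with 8 of 12 higher and 0 lower and sums of 113 and 316 CPM. Of 7 Schwann cell and nerve markers 3 were lower, with sums of 493 and 395 CPM, and of 6 neuroendocrine markers 4 were lower and 1, Sox2, higher, with sums of 131 and 41.6 CPM. The urothelial markers split, with 2 of 5 higher and 2 lower and sums of 344 and 1030 CPM, led by Gata3. Of 4 measured prostate secretory genes 2 were higher and 1 lower, with sums of 89.0 and 7438 CPM, and Tgm4, a prostate transglutaminase, had 396 and 127387 reads. Defining prostate genes were present in part: Pbsn, the probasin gene, had 194 and 410 reads and Hoxb13 496 and 3229, while the secretory gene Msmb was at 0 in both libraries and Spink3, with 50 reads in Bcat_Only, was at 0 in Met_Bcat. The genes of the genotype names, Met and Ctnnb1, had ratios of 0.981 (0.935 to 1.03) and 0.992 (0.972 to 1.01), and the beta-catenin target Axin2 1.32 (1.28 to 1.36). An allele that lacks an exon, or a transgene of another species, need not change these totals.

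**Figure D4:**
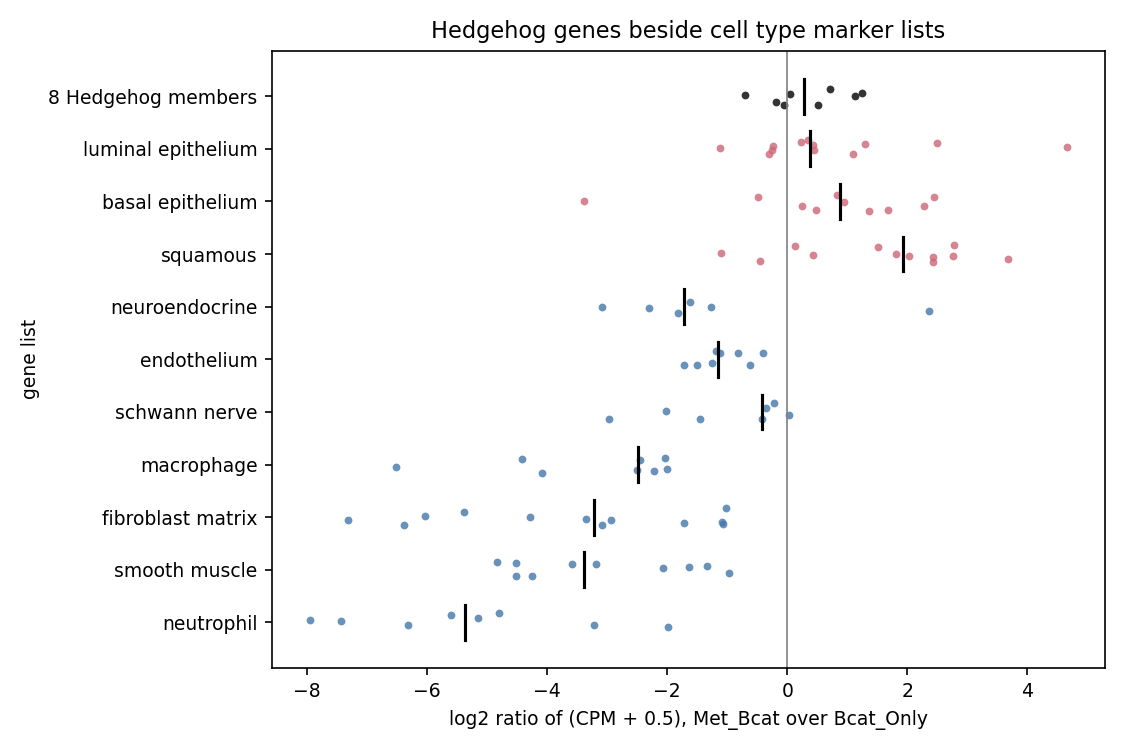
log2 ratio of CPM plus 0.5 (x axis) for the 8 measured Hedgehog members and for the measured genes of 10 cell type marker lists (y axis), with 1 point per gene and a vertical bar at each median. The Hedgehog members run from −0.70 (Gli2) to 1.25 (Gli1) with a median of 0.28. The luminal median is 0.39, and that of the urothelial list, which is not drawn, is 0.32. The fibroblast (−3.21) and smooth muscle (−3.38) medians lie far to the left.

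Outside the 9 genes, 48 other genes of the pathway were listed by role, 47 were found and 45 measured. Of these, 6 were higher in Met_Bcat (among them Disp2, Scube1, Foxf2, Bmp4 and Mycn) and 5 lower (Scube3, Gas1, Fst, Sfrp1 and Fgf10). Over all 14354 genes measured, 4.42% were called higher and 14.6% lower. The median log2 ratio of the pathway genes was 0.10, against 0.030 over all genes. The pathway calls lay in the ligand, co-receptor and target lists, and 0 of 11 cytoplasmic regulators and 0 of 10 cilium genes were called.

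Among 7 genes of ligand making and release, 5 were measured. Scube1, one of a family of secreted proteins of which Scube2 carries released ligand, had 128 reads in Bcat_Only and 872 in Met_Bcat and was 5.96-fold higher (4.94 to 7.23). Disp2, a relative of the ligand-releasing protein Dispatched, had 255 and 833 reads and was 2.86-fold higher (2.48 to 3.30), and Scube3 had 37 and 7 reads and was 6.05-fold lower (2.66 to 16.1). Scube2 itself had 85 and 59 reads, a ratio of 0.607 (0.428 to 0.856), and Hhat, the acyltransferase that adds palmitate to the ligand, 117 and 87, a ratio of 0.650 (0.487 to 0.865). The family therefore went both ways, with a median of −0.57 and a mean of 0.24, and the median became 1.99 with a minimum of 10 CPM. Disp1 was listed at 0 reads in both libraries, but its row lies on a sequence outside the named chromosomes, so its expression cannot be judged from it.

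The co-receptors also split. Gas1, a membrane-anchored co-receptor, had 1115 and 159 reads and was 8.02-fold lower (6.79 to 9.53). The co-receptors Boc and Cdon had ratios of 1.38 (1.27 to 1.51) and 0.670 (0.599 to 0.748), on opposite sides of 1. Lrp2, the endocytic receptor megalin, had a ratio of 0.577 (0.537 to 0.619).

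No gene of the intracellular machinery passed the 2-fold rule. Over 11 cytoplasmic regulators the median log2 ratio was 0.15, and it was −0.24 under luminal scaling. Csnk1a1, a casein kinase that phosphorylates GLI proteins, had a ratio of 1.01 (0.985 to 1.04), Gsk3b, a kinase that does the same, 1.16 (1.11 to 1.21), and Spop, which targets GLI proteins for degradation, 1.11 (1.07 to 1.16). The 10 cilium genes had a median of 0.14, also −0.24 under luminal scaling, with Kif3a, a motor subunit of ciliary transport, at 1.19 (1.09 to 1.32), Tulp3, which ferries receptors into the cilium, at 1.56 (1.42 to 1.71) and Dync2h1, the retrograde motor, at 0.966 (0.880 to 1.06).

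The genes that textbooks list as Hedgehog targets in one tissue or another, of which 14 were measured beside the members, went both ways. Of the 14, 4 were called higher and 3 lower, against 4.42% and 14.6% of all genes. Their median was 0.022, while their mean was −0.76 and the median under luminal scaling −0.33. Among the higher genes were Foxf2, a forkhead factor of mesenchyme, with 23 and 117 reads (4.45-fold, 2.83 to 7.29), Bmp4, a bone morphogenetic protein, with 149 and 556 (3.26-fold, 2.72 to 3.94), and Mycn, a MYC family gene, with 13 and 86 (5.78-fold, 3.21 to 11.3). The cyclin genes Ccnd1 and Ccnd2 had ratios of 1.59 (1.53 to 1.66) and 1.75 (1.66 to 1.84), below the 2-fold rule, and Bcl2, a survival gene, 1.07 (0.989 to 1.17). Lower were Sfrp1, a secreted Wnt antagonist, with 42486 and 47 reads (1034-fold, 777 to 1408), Fst, the activin inhibitor follistatin, with 1147 and 476 (2.76-fold, 2.48 to 3.07), and Fgf10, a growth factor of mesenchyme, with 336 and 2, a ratio of 192-fold lower (52.8 to 1593). Foxf1, the close relative of Foxf2, had 45 and 49 reads and a ratio of 0.952 (0.622 to 1.46). Opposite-strand features over Bmp4 had 0 and 2 reads and that over Fgf10 had 7 and 0. The lower level of Sfrp1, Fst and Fgf10 stood beside 2 lower marker lists given above. The fibroblast list had a median of 9.28-fold lower and the seminal vesicle list a median of 708-fold lower. The part of either list in the level of these genes was not tested. Many of these targets also answer to other pathways, so their ratios describe the genes and not Hedgehog activity.

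**Figure D5:**
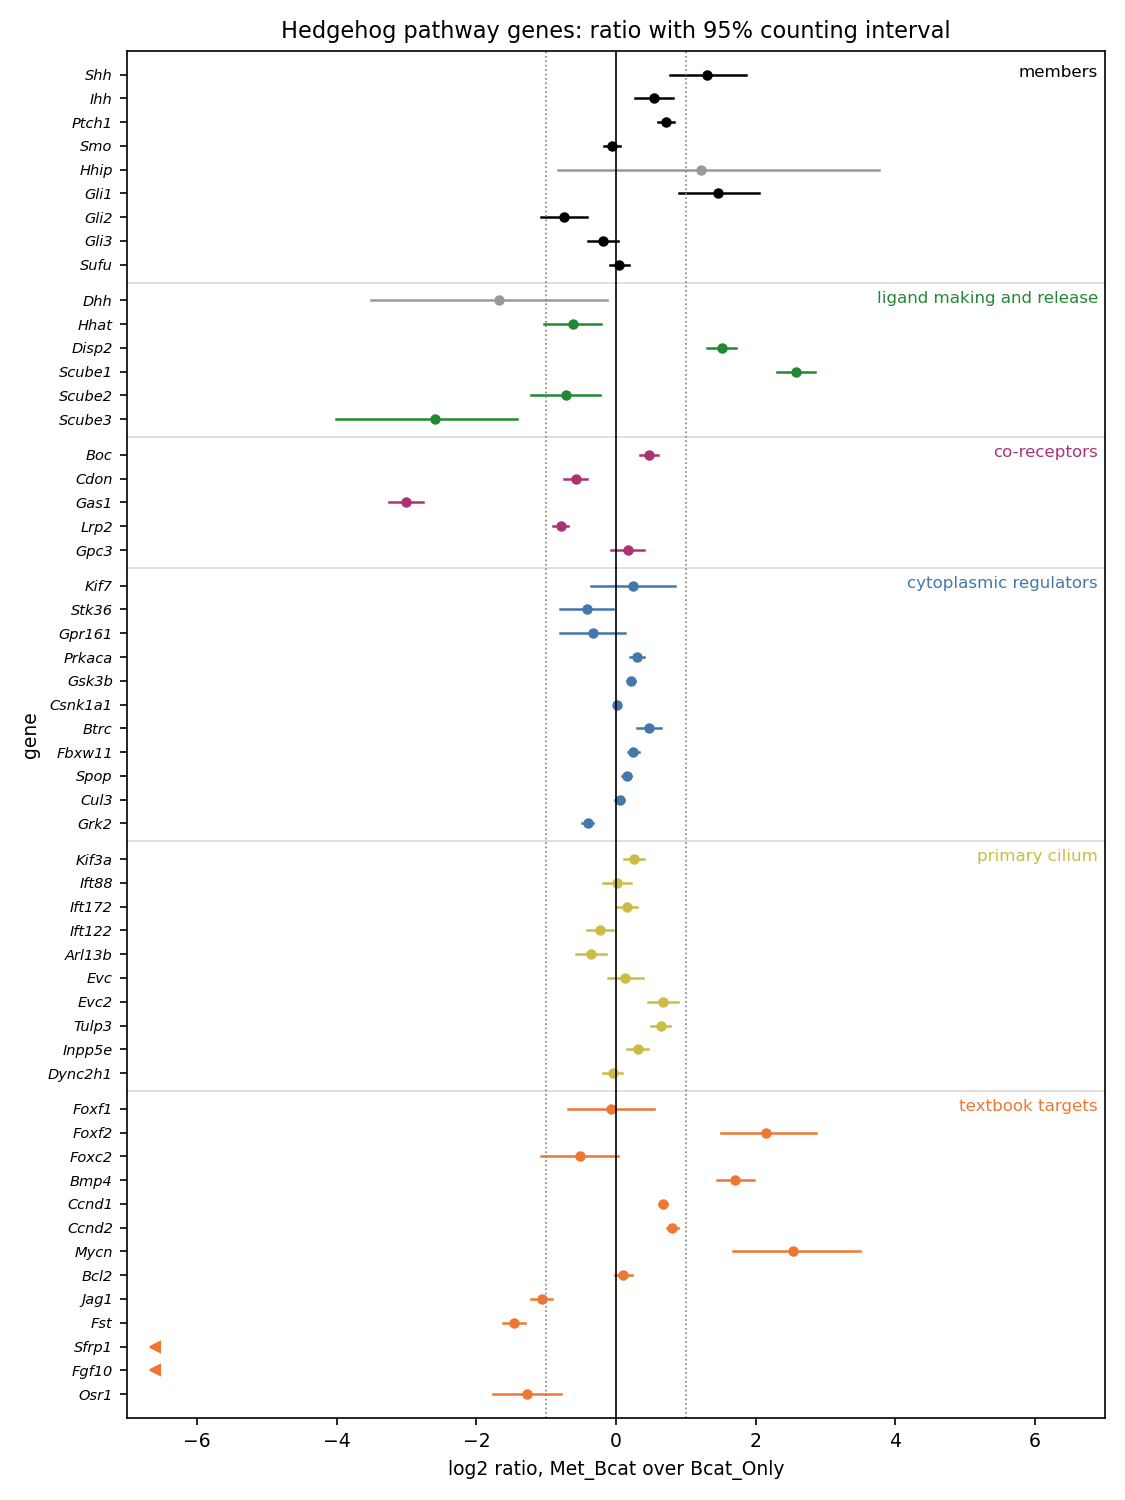
log2 ratio of Met_Bcat to Bcat_Only (x axis) with its 95% exact interval for the 9 members and other pathway genes by role, with dotted lines at 2-fold. Grey marks genes under 1 CPM, and arrowheads mark Sfrp1 and Fgf10, which lie beyond the axis. Gli1, Shh, Scube1 and Bmp4 lie to the right, Gas1, Scube3 and Fst to the left, and the cytoplasmic and cilium genes close to 0.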

How the data were processed

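The authors deposited raw counts of reads, 1 whole number per gene and library, for 2 libraries of prostate tumour RNA, 1 per genotype. TopHat2 (version 2), HTSeq, edgeR and mm9 are listed in the submitters' processing notes, and per the labels' protocols the reads were single-end from a stranded mRNA kit. The exon length per gene that the authors deposited was used to scale levels per kilobase. Columns were matched to samples through the sample number in their headings.

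Library sizes were scaled with TMM (edgeR 4.0.16 in R 4.3.3; factors 0.955 for Bcat_Only and 1.05 for Met_Bcat), and counts were expressed as CPM. Intervals of a ratio are exact (Clopper-Pearson) and conditional on a gene's summed reads, those of a level are exact Poisson, and those between 2 genes are of the conditional odds ratio (scipy 1.17.1). They cover counting error only. Because PCR reads without molecular identifiers are not independent molecules, the intervals can be too narrow even for that. With 1 library per genotype no p-value was computed. The interval procedure was tested on simulated data that held Poisson counting error alone, the error it assumes. That test therefore does not cover any other variation in real libraries. Medians of lists use CPM plus 0.5. DESeq2 1.42.0 served for 1 alternative scaling only.

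The members and lists were chosen with earlier results of these data known. All 9 members are named, then in each other pathway list the called genes and up to 3 more by highest mean CPM, and in cell type lists up to 4 by highest mean CPM. Foxf1, Disp1, Jag1, Osr1, Pdgfra, Pdgfrb, Krt15, Hoxb13, Msmb, Svs1, Svs3a and Svs6 were named after their values were seen. Foxl1 was not analysed here, and results on some listed genes are not reported here. Of the 9 members, 7 matched a RefSeq promoter of GRCm38.p6, a build used for sequence only, and Shh and Gli1 did not.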

Additional observations from a re-analysis of the deposited data

How the results depend on the processing

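9 settings other than the main one were tried for counts of called genes. The count of higher members, 0, became 1 (Gli1) with total counts and 3 (Shh, Ptch1 and Gli1) with the interval end at 1.5-fold, and 0 members were lower under any setting tried. Of the other pathway genes, 6 higher became 4 with luminal scaling, 4 with a minimum of 10 CPM, 8 at 1.5-fold, 1 at 4-fold and 5 with the 99% interval. The 5 lower became 8 with luminal scaling, 3 with a minimum of 10 CPM, 8 at 1.5-fold and 3 at 4-fold. The remaining settings left both pathway counts as they were. Luminal scaling kept 9 of the 11 called genes, Disp2 being among those lost, and added Lrp2, Jag1 and Osr1. The 99% interval kept 10 of 11. Over all genes, 635 higher became 412 with luminal scaling, 356 at 10 CPM, 1166 at 1.5-fold and 251 at 4-fold. The 2102 lower became 2809 with luminal scaling, 1226 at 10 CPM, 2828 at 1.5-fold and 1086 at 4-fold. The remaining settings moved these counts by less. Of the calls over all genes 76.8% were lower, and 87.2% under luminal scaling.

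Without scaling by length, the shares in Bcat_Only and Met_Bcat were 6.08% and 18.6% for Gli1 and 60.6% and 59.2% for Gli3, and 33.3% and 22.2% for Gli2. With the median of the per-gene fibroblast ratios as denominator in place of the summed reads, the log2 ratio of Gli1 to that list was 4.69 instead of 5.82, and that of Ptch1 3.94 instead of 5.08. The median of ligand making and release rose to 1.99 with a minimum of 10 CPM, where fewer genes were left.

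No paired analysis was possible because each genotype has 1 library. Among the members depth limits Hhip, Gli1 and Shh most, with 3, 35 and 40 reads in Bcat_Only.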
